A study of Mus musculus with 6 samples.

Results

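Prg4 encodes lubricin, the glycoprotein that coats the articular surface and lets cartilage slide with little friction. In the joint it is made by chondrocytes of the superficial zone, the flat cells at the cartilage surface, and by the lining cells of the synovium, while the deeper zones make mainly type II collagen and aggrecan. The 9 genes described here are Prg4 and 8 genes named with the superficial zone or its surrounding tissue, and they were taken by symbol from the 17854 genes measured. They fall into a lubricant (Prg4), the transcription factors Creb5 and Erg, the cartilage intermediate layer proteins Cilp and Cilp2, and the matrix or matrix-bound proteins Vit (vitrin), Abi3bp, Thbs4 and Tnxb. All 9 passed the filter on low counts that left 14289 genes for testing. The set was chosen with the contrast between the groups known, so its values and fold changes are given as a description, and the single count of genes past the threshold is read as no test of the set. The question was how much of its endogenous level each gene held beside Prg4, which was itself below that level.

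Bulk RNA sequencing compared Tomato+ cells sorted from knee cartilage in 2 groups of 3 male C57BL/6 libraries, all labelled as chondrocytes. The InjectPrrx group came from repaired articular cartilage of wild-type mice that had anterior cruciate ligament transection at 8 weeks of age, to induce osteoarthritis, and then an injection into the joint of Prrx1-lineage MSCs (mesenchymal stromal cells) from inguinal white fat of Prrx1-Cre; R26tdTomato donors. The NativePrrx group held the endogenous Tomato+ articular cells of age- and sex-matched Prrx1-Cre; R26tdTomato mice, for which no surgery or injection is described. The groups are called MSC-derived and endogenous cells below. Both groups carry the same label: Cre under Prrx1 control switches on tdTomato for good in descendants of early limb mesenchyme, so Tomato marks a lineage and not a chondrocyte. The groups therefore differed in injury, host, tissue of origin and injection at once, and these cannot be told apart. The methods give 3 mice a group, and no label says more on how libraries were drawn from them, so the spread between libraries may be in part technical.

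The libraries held 22060628 to 24881796 expected counts, with no split by group. Endogenous replicate 1 stood apart, with 3459 genes at zero against 1338 and 1395 in the other endogenous libraries and 1932 to 1948 in the MSC-derived ones. The chondrocyte label was checked against markers. Col2a1, the type II collagen gene, was at 118 to 126 TPM (a level corrected for transcript length and put on the same total in each library) in MSC-derived and 12367 to 14056 in endogenous libraries. Neutrophil markers summed to 147318 to 155986 TPM in MSC-derived against 8221 to 11576 in endogenous libraries, erythroid markers to 79132 to 81437 against 18203 to 24586, and macrophage markers to 14116 to 14438 against 59.1 to 78.7. The MSC-derived libraries thus held much RNA of blood cell types. Col2a1 was far below its endogenous level there, as was the aggrecan gene Acan, at 3.60 to 3.89 TPM against 223 to 259. The part of blood cell RNA in the values below was not tested. In bulk samples, fewer cells of a type and less RNA per cell cannot be told apart. Prrx1 itself was at 4.30 to 4.91 TPM in MSC-derived and 22.8 to 38.3 in endogenous libraries.

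The stretch just before a gene's start holds much of what recruits transcription factors. Creb5, a bZIP factor of the CREB/ATF family known to promote Prg4 expression in superficial zone cells, binds the cAMP response element TGACGTCA, and Erg, an ETS factor of the permanent articular chondrocyte and of endothelium, binds sites with a GGAA core. Upstream windows of 250 bases from RefSeq (GRCm38.p6) were found for 6 of the 9 genes, in 9 windows. 4 are printed here because they belong to the factors themselves (Creb5 and one of 3 Erg starts), to the gene with the most ETS letters (Thbs4), and to the gene furthest below its endogenous level among those with a window (Cilp2). Capitals mark the motif letters that were searched, on both strands, so that AGGAAG on the other strand reads CTTCCT and AACAAT reads ATTGTT. The windows are chr6:53287053-53287302 on the plus strand for Creb5, and on the minus strand chr16:95459349-95459598 for Erg, chr13:92794819-92795068 for Thbs4 and chr8:69887393-69887642 for Cilp2.
Creb5: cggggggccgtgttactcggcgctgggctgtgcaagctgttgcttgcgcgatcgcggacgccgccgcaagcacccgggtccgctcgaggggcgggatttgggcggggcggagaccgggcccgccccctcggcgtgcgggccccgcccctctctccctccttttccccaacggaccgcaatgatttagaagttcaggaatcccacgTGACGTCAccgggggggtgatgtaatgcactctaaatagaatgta
Erg: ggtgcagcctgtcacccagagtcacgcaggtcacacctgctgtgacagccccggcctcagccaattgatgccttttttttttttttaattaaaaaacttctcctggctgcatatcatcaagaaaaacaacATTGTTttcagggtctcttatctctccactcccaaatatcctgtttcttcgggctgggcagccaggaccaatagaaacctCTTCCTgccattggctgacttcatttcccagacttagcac
Thbs4: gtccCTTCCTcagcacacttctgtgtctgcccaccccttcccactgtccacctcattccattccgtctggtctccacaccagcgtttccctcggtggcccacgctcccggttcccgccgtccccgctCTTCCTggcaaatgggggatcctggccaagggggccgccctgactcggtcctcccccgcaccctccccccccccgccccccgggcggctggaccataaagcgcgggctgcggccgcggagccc
Cilp2: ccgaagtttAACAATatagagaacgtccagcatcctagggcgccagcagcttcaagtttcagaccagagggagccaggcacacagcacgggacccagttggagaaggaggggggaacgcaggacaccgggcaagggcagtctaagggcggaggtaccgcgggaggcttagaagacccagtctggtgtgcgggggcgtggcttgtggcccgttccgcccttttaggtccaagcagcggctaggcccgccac
The full element TGACGTCA lay 45 bases before the Creb5 start and in no other of the 9 windows, and 1.55% of all 32851 windows of this length held it. Its half-site TGACG, which overlaps the full element there on both strands, was in the same window only and in 17.8% of all windows. The ETS core AGGAAG was in the printed Erg window and at 2 places in that of Thbs4, and in 29.5% of all windows. The longer ETS letters ACCGGAAG were in none of the 9 and in 1.72% of all. The SOX letters AACAAT were in the Cilp2 and printed Erg windows and in 9.42% of all, and TATAAA was in another Erg window and in 12.4% of all. The windows of Cilp, Tnxb, the other Creb5 start and the remaining Erg start held none of these letters. A match is a description of the letters and not a site, and the expression values below do not bear on binding.

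Prg4 was among the most abundant transcripts in both groups. It stood at 1975, 2051 and 1974 TPM in MSC-derived replicates 1 to 3 and at 4848, 3460 and 3646 TPM in the endogenous ones. The groups did not overlap, and endogenous replicate 1 was well above the other two. By TPM, Prg4 ranked 51 to 53 among all genes in MSC-derived cells and 25 to 33 in endogenous cells. The MSC-derived mean was 50.2% of the endogenous mean on the TPM scale, 74.6% in FPKM (the same correction for length, with no rescaling to a common sum) and 70.3% in CPM (counts set against library size with TMM scaling), the scale of the fold changes below. The log2 fold change was -0.51 (SE 0.07) on the CPM scale. Without endogenous replicate 1 the share was 73.5% in CPM and 56.3% in TPM. Over all genes tested the median log2 fold change was 0.05, and 32.9% of them lay lower than Prg4.

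**Figure D1:**
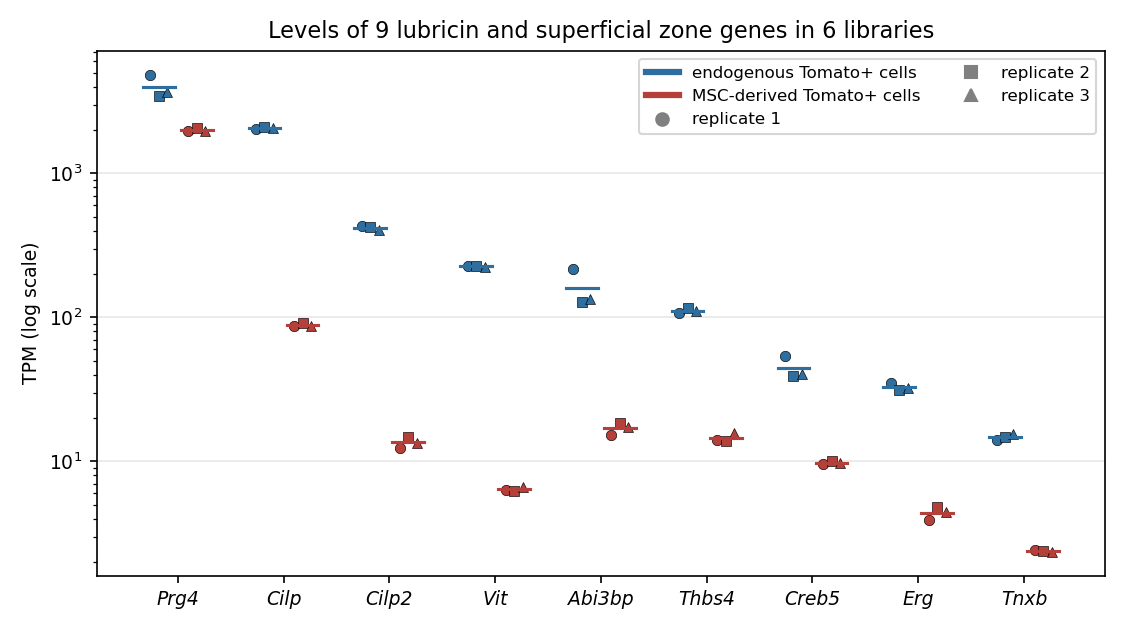
TPM (log axis) of the 9 genes in each of the 6 libraries, with replicates as symbols and the group mean as a bar. Prg4 lay at 1974 to 2051 TPM in MSC-derived and 3460 to 4848 TPM in endogenous cells, while Cilp, second in both groups, lay at 86.9 to 91.8 and 2041 to 2083.

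The factors lay further below their endogenous level than the lubricant. Creb5 was at 9.63, 10.1 and 9.75 TPM in MSC-derived cells and at 53.9, 39.0 and 40.5 TPM in endogenous cells. All MSC-derived libraries lay under all endogenous ones, and as for Prg4 endogenous replicate 1 was highest. The Creb5 log2 fold change was -1.76 (SE 0.11), which left 29.4% of the endogenous CPM, the second highest share of the 9. Erg was at 3.94, 4.81 and 4.48 TPM in MSC-derived cells and at 35.1, 31.3 and 32.2 TPM in endogenous cells. The endogenous libraries were close together here, and the Erg log2 fold change was -2.51 (SE 0.12), with 17.6% of the endogenous CPM left. Endothelial cells also express Erg, and of 11 endothelial markers tested, 6 were called higher in MSC-derived cells and 0 lower (10 higher without endogenous replicate 1), with summed levels of 54.8 to 60.5 TPM against 22.4 to 34.6. Pecam1, which encodes an adhesion molecule of endothelium, rose by 2.17 on the log2 scale (SE 0.24). Over all genes tested 31.3% were called higher, and on the TPM scale 3 of the endothelial markers were. Erg fell while the endothelial markers called here rose, and the part of endothelial cells in the Erg values was not tested. Fli1, the nearest relative of Erg and expressed in many blood cells, rose too (log2 fold change 2.02, SE 0.20).

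The Cilp genes and Vit were furthest from their endogenous level. Cilp, a matrix protein found between the surface and the deep zone that binds growth factors, was at 86.9, 91.8 and 87.3 TPM in MSC-derived cells and at 2041, 2083 and 2049 TPM in endogenous cells. Its relative Cilp2 was at 12.5, 14.8 and 13.4 TPM against 431.0, 422 and 402. Vit, a matrix protein with von Willebrand factor A domains, was at 6.38, 6.20 and 6.64 TPM against 226, 228 and 224. Within each group these 3 genes varied little beside the gap between the groups. Their log2 fold changes were -4.10 (SE 0.08) for Cilp, -4.50 (SE 0.10) for Cilp2 and -4.70 (SE 0.10) for Vit, which left 5.84%, 4.41% and 3.83% of the endogenous CPM. Of all genes tested, 4.17% had a log2 fold change of -4 or less.

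The other matrix genes lay between. Abi3bp, a matrix protein of connective tissue, was at 15.2, 18.5 and 17.4 TPM in MSC-derived cells and at 217, 128 and 135 TPM in endogenous cells. Endogenous replicate 1 set the spread of Abi3bp, which had the widest spread of the 9 in endogenous cells (21.4% of its mean in CPM). Its log2 fold change was -2.72 (SE 0.16), with 15.2% of the endogenous CPM left, or 17.3% without endogenous replicate 1. Thbs4, a pentameric thrombospondin of tendon and other mechanically loaded tissue, was at 14.0, 13.8 and 15.9 TPM against 107, 117 and 110. Its log2 fold change was -2.50 (SE 0.12), and 17.7% of the endogenous CPM was left. Tnxb, the gene of tenascin X, a collagen-binding protein of loose connective tissue, was the lowest of the 9 at 2.44, 2.40 and 2.36 TPM against 14.0, 14.8 and 15.5. The groups were apart for all 3 genes. The Tnxb log2 fold change was -2.18 (SE 0.12), with 22.0% of the endogenous CPM left. Tnxb lies in a gene-dense region where neighbouring genes overlap it, and whether counting used strand is not given in the sources used here, so its reads cannot be told apart from those of an overlapping gene.

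**Figure D2:**
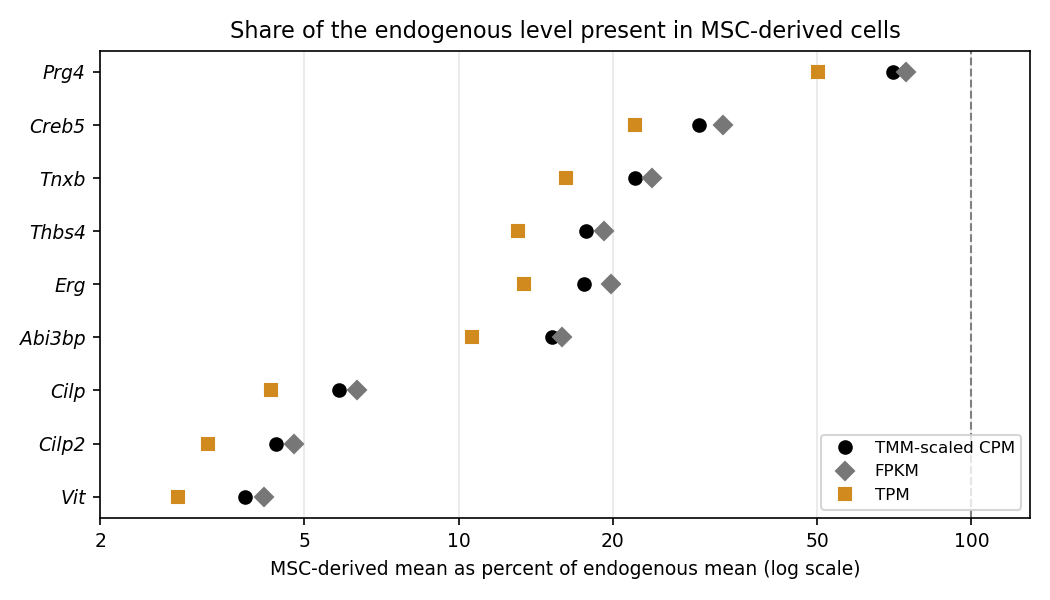
Mean level in MSC-derived cells as a percent of the endogenous mean (log axis, dashed line at 100) for the 9 genes in CPM, FPKM and TPM. Prg4 lies at 70.3% in CPM, Creb5 next at 29.4%, and Vit lowest at 3.83%, and the order of Prg4, Creb5 and Tnxb above and Cilp, Cilp2 and Vit below is the same on the 3 scales.

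All 9 genes were past the adjusted p of 0.05 and lower in MSC-derived cells, as were 30.3% of all genes tested, with 31.3% higher and 61.6% in either direction. The groups did not overlap in CPM for any of the 9, against 72.4% of all genes tested, or 34.1% with the MSC-derived group below. Since the set was chosen on this contrast, nothing is read from these counts. The median log2 fold change of the 9 was -2.51 and that of the 8 genes without Prg4 was -2.61, and 7 of the 9 were at -2 or less, against 13.8% of all genes tested. On the TPM scale the share of calls that were higher fell from 50.8% to 34.4% of all calls, a shift of the median over all genes of -0.40, which is why each share above carries its scale.

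The order of levels changed between the groups. In endogenous cells the order by TPM was Prg4, Cilp, Cilp2, Vit, Abi3bp, Thbs4, Creb5, Erg and Tnxb, and no pair of neighbours overlapped. In MSC-derived cells Prg4 and Cilp still came first, followed by Abi3bp, Thbs4 and Cilp2. Thbs4 overlapped both of its neighbours there, while Abi3bp lay above Cilp2 without overlap. Then came Creb5, Vit, Erg and Tnxb. Cilp2 fell from ranks 329 to 348 among all genes to ranks 5286 to 5813, and Vit from 593 to 625 to 7671 to 7867. Prg4 made up 92.9%, 92.7% and 92.6% of the summed TPM of the 9 genes in MSC-derived cells and 60.8%, 53.0% and 54.8% in endogenous cells. The other 8 genes together gave 151 to 162 TPM against 3009 to 3126 TPM.

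A ratio of genes within a library does not depend on how libraries are scaled to each other, so each gene was set against Prg4. Per 1000 TPM of Prg4, Creb5 stood at 4.88, 4.92 and 4.94 TPM in MSC-derived cells and at 11.1, 11.3 and 11.1 in endogenous cells. In TPM, the only scale used for these ratios, Creb5 thus varied little against Prg4 within each group, endogenous replicate 1 included. The ratio was 2.27-fold higher in endogenous cells. The thrombospondin gene Thbs1 was as steady in MSC-derived cells, at 48.8, 48.6 and 48.6, but less so in endogenous cells, at 79.4, 82.9 and 73.3. The share of all genes with so steady a ratio was not computed, so nothing is read from it. The endogenous ratio was 3.17-fold higher for Tnxb, 3.80-fold for Erg, 3.94-fold for Thbs4, 4.66-fold for Abi3bp, 11.9-fold for Cilp, 15.8-fold for Cilp2 and 18.1-fold for Vit. None of the 8 genes kept the endogenous ratio to Prg4, and the groups did not overlap for any of them. Against all 14288 other genes tested, the ratio overlapped between the groups for 21.7%, was lower in MSC-derived cells for 22.6% and was higher for 55.8%. Prg4 itself stood at 16.7, 17.3 and 15.7 times the TPM of Col2a1 in MSC-derived cells and at 0.345, 0.277 and 0.295 times in endogenous cells.

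**Figure D3:**
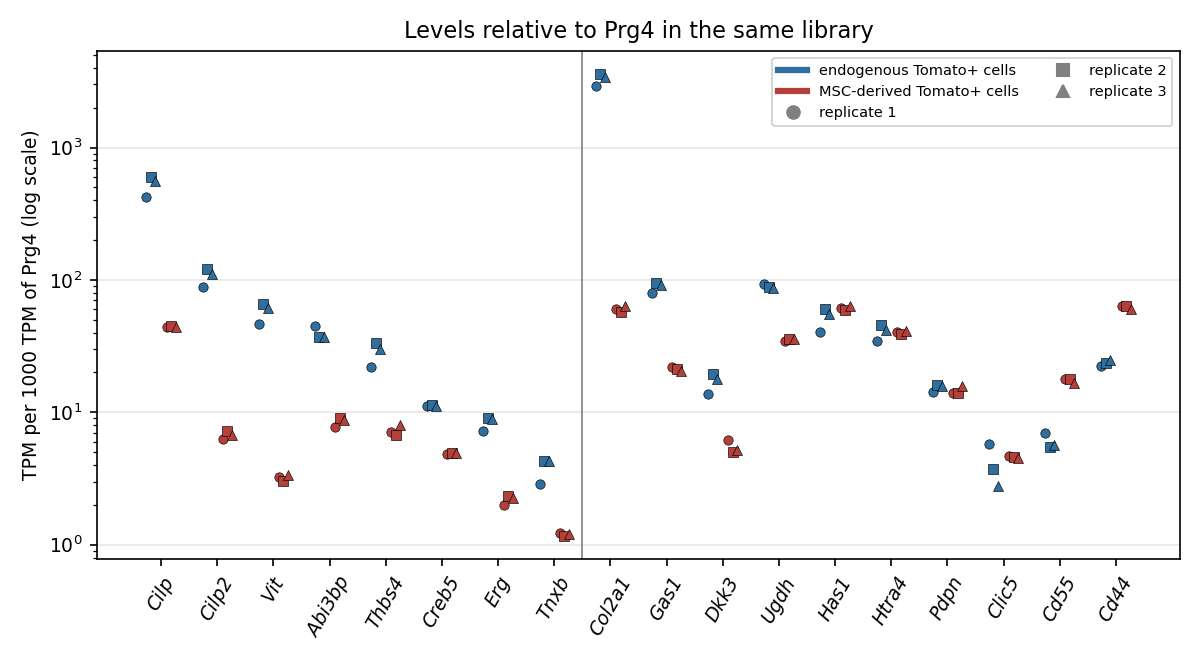
TPM per 1000 TPM of Prg4 in the same library (log axis), for the other 8 genes at left and for genes of the cartilage, joint surface and hyaluronan lists at right, picked after their values were seen. The groups are apart for all 8 at left, and overlap for Has1, Htra4, Pdpn and Clic5 at right. For Htra4 and Clic5 the overlap rests on endogenous replicate 1.

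Endogenous replicate 1 was above the mean of the other two endogenous libraries in CPM for Abi3bp (1.42 times), Creb5 (1.19 times) and Prg4 (1.14 times), and below it for the remaining 6, from 0.967 times for Erg to 0.788 times for Tnxb. In TPM it was again highest for Abi3bp (1.65 times), Prg4 (1.36 times) and Creb5 (1.36 times), but the other 6 ran from 0.924 times for Tnxb to 1.10 times for Erg, so that their direction depends on the scale. Within the MSC-derived group the spread was from 2.15% of the mean for Prg4 to 10.4% for Erg in CPM. The transcript length that the expected counts imply (count divided by FPKM and by library size) moved in a few genes. For Abi3bp it was 4.72 to 4.85 kb in MSC-derived cells and 4.60 to 4.65 kb in endogenous cells. For Erg it was 2.94 to 2.97 kb against 3.06 to 3.09 kb, and for Creb5 3.44 to 3.54 kb against 3.59 to 3.62 kb. The groups did not overlap for these 3 genes, but with 3 libraries a group a two-sided exact permutation test cannot go below p = 0.10. The lengths overlapped between the groups for the other 6 genes. The share of all genes tested without overlap in this length was not computed, so no change of transcript form is read from it.

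Some other genes of the joint surface and synovial lining lay nearer to Prg4 than any of the 8, and those named for this were picked after their values were seen. Of 15 such genes tested, 10 were called lower in MSC-derived cells, 2 higher and 3 neither (edgeR quasi-likelihood test, adjusted p of 0.05), with a median log2 fold change of -1.91. Htra4, a secreted serine protease of synovial lining cells, was at 80.3, 80.0 and 81.7 TPM in MSC-derived cells and at 168, 159 and 153 TPM in endogenous cells. Its log2 fold change was -0.54 (SE 0.07). Per 1000 TPM of Prg4 it stood at 40.3 ± 1.22 (SD, n = 3) against 40.8 ± 5.61 (SD, n = 3), so the groups overlapped. Pdpn, the podoplanin gene of lining fibroblasts, fell by 0.61 (SE 0.10), and its ratio to Prg4 was 14.6 ± 1.07 (SD, n = 3) against 15.4 ± 0.882 (SD, n = 3). Clic5, a chloride channel family member, did not pass the test (log2 fold change -0.41, SE 0.30), and its endogenous replicate 1 was at 27.9 TPM against 13.0 and 10.2 in the others. In all, the ratio to Prg4 overlapped between the groups for 5 of these 15 genes, was lower in MSC-derived cells for 7 and was higher for 3.

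The genes of this list with the largest changes lay far from Prg4. Wnt4, a Wnt ligand of the forming joint, fell by 6.23 on the log2 scale (SE 0.21). The growth factor gene Gdf6 fell by 4.38 (SE 0.49), and Wnt9a, another Wnt ligand gene, fell by 3.60 (SE 0.33). Gdf5, a relative of Gdf6 which marks the early joint interzone, fell by 3.30 (SE 0.42). Gas1, a membrane co-receptor of hedgehog signalling, was abundant in endogenous cells at 385, 329 and 333 TPM and stood at 43.1, 43.6 and 40.4 TPM in MSC-derived cells. The ratio to Prg4 overlapped between the groups for Osr1, a transcription factor gene of joint development, at 1.16 to 1.88 against 0.967 to 3.04 TPM per 1000 TPM of Prg4, and for the low Wnt16. Both overlaps rested on endogenous replicate 1, without which Osr1 was at 3.01 and 3.04 in endogenous cells. Cd55, a complement inhibitor that is also high on lining fibroblasts, rose by 1.05 (SE 0.14), and the Wnt modulator Sfrp2 rose by 0.86 (SE 0.15). Blood cells carry Cd55 as well, the markers of blood cells given above moved with it, and their part was not tested. On the TPM scale neither Cd55 nor Sfrp2 passed the test, with log2 fold changes of 0.54 and 0.40.

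Hyaluronan is the other lubricant of the joint. Of 9 genes of its metabolism tested, 5 were called lower and 4 higher, with a median log2 fold change of -0.27. Has1, a hyaluronan synthase, was at 122, 123 and 126 TPM in MSC-derived cells and at 196, 208 and 202 TPM in endogenous cells. It fell by 0.27 on the log2 scale (SE 0.09), a call that was lost in several alternatives, and its ratio to Prg4 overlapped between the groups at 61.8 ± 2.09 (SD, n = 3) against 52.0 ± 10.4 (SD, n = 3). The other synthase gene tested, Has2, fell by 4.19 (SE 0.35), from 6.13 to 10.8 TPM in endogenous cells to 0.31 to 0.45 TPM. Ugdh, whose enzyme makes a sugar precursor of hyaluronan, fell by 1.88 (SE 0.11), and the hyaluronan-degrading Cemip fell by 4.15 (SE 0.22). The hyaluronan receptor gene Cd44 rose by 0.86 (SE 0.08), the motility receptor gene Hmmr by 1.40 (SE 0.25) and the lysosomal hyaluronidase gene Hyal1 by 1.35 (SE 0.11). Cd44 is also high on leukocytes, whose markers moved with it, and their part was not tested.

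Known regulators of Prg4 were mostly lower. Of 19 genes of the TGF-beta, cAMP, FOXO, YAP and NFAT pathways tested, 12 were called lower, 3 higher and 4 neither, with a median log2 fold change of -0.91. Pth1r, the receptor of parathyroid hormone-related protein, fell by 5.49 (SE 0.10), and of the Hippo pathway co-activator genes Yap1 fell by 3.38 (SE 0.10) and Wwtr1 fell by 3.28 (SE 0.10). Foxo1, whose factor is needed for Prg4 expression in superficial cartilage, fell by 2.13 (SE 0.07). The ligand gene Tgfb1, at 356 to 359 TPM against 248 to 298, rose by 0.85 (SE 0.06), and the receptor gene Tgfbr2 rose by 0.64 (SE 0.10), a call that was lost on the TPM scale (0.20). Tgfbr1 was called higher (0.33, SE 0.10) but had the opposite sign on the TPM scale (-0.11). Smad2 had the smallest change of the list at -0.02 (SE 0.12) and changed sign between settings, with -0.41 on the TPM scale, where it was called lower. The call counts of these genes shifted with endogenous replicate 1, without which 5 were called higher.

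Relatives of the 9 genes changed in both directions. Of 14 tested, 9 were called lower, 2 higher and 3 neither, with a median log2 fold change of -1.49. Comp, a pentameric thrombospondin like Thbs4 and abundant in cartilage and tendon, was at 283, 288 and 292 TPM in MSC-derived cells against 5644, 6121 and 6013 in endogenous cells. Comp fell by 3.93 (SE 0.10). Thbs1, the thrombospondin gene also expressed by platelets and macrophages, fell by 1.23 (SE 0.09), Thbs3 fell by 2.54 (SE 0.11), and the tenascin gene Tnc fell by 3.50 (SE 0.11). Coch, like Vit a matrix gene with von Willebrand factor A domains, was at 7.92 to 13.6 TPM in endogenous cells and at 0 in 2 of the 3 MSC-derived libraries. Besides Fli1, the gene called higher was Tnr, which stayed under 0.2 TPM in each library. Among relatives of Creb5, Atf7 fell by 0.98 (SE 0.23) and Atf2 did not pass the test (-0.41, SE 0.22). The ratio to Prg4 overlapped for both, as it did for 4 of the 14 relatives in all. For Atf2 the overlap rested on endogenous replicate 1.

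By their medians, the lists of general and middle zone cartilage and of the calcified zone lay further below their endogenous level than the 9. The first list includes general cartilage genes, so it does not mark depth. All 14 genes tested of the middle zone and general cartilage matrix were called lower, with a log2 median of -6.03 and summed levels of 1123 to 1159 TPM against 56349 to 57716 TPM. Col9a1, a type IX collagen gene, fell by 8.25 (SE 0.12), Col2a1 fell by 6.30 (SE 0.06), and the cartilage transcription factor gene Sox9 fell by 5.10 (SE 0.09). The smallest change was that of Sox6, a partner of Sox9, at -2.29 (SE 0.12). All 14 genes tested of the calcified zone were called lower too, with a median of -5.46. Panx3, a channel gene of hypertrophic cells, fell by 11.41 (SE 0.31) and Runx3 fell by 1.37 (SE 0.10). Each of these 28 genes lay lower than Prg4, and the ratio to Prg4 was lower in MSC-derived cells for all 14 genes of the first list. Some calcified zone genes, among them Runx2, Ibsp and Spp1, are also genes of bone. In endogenous libraries Ibsp was at 4343 to 5705 TPM and Spp1 at 5782 to 6934, against 96.0 to 107 and 771 to 785 in MSC-derived ones. The paper reports Tomato+ osteoblasts in Prrx1-Cre; R26tdTomato mice, and the part of bone cells in these values was not tested.

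**Figure D4:**
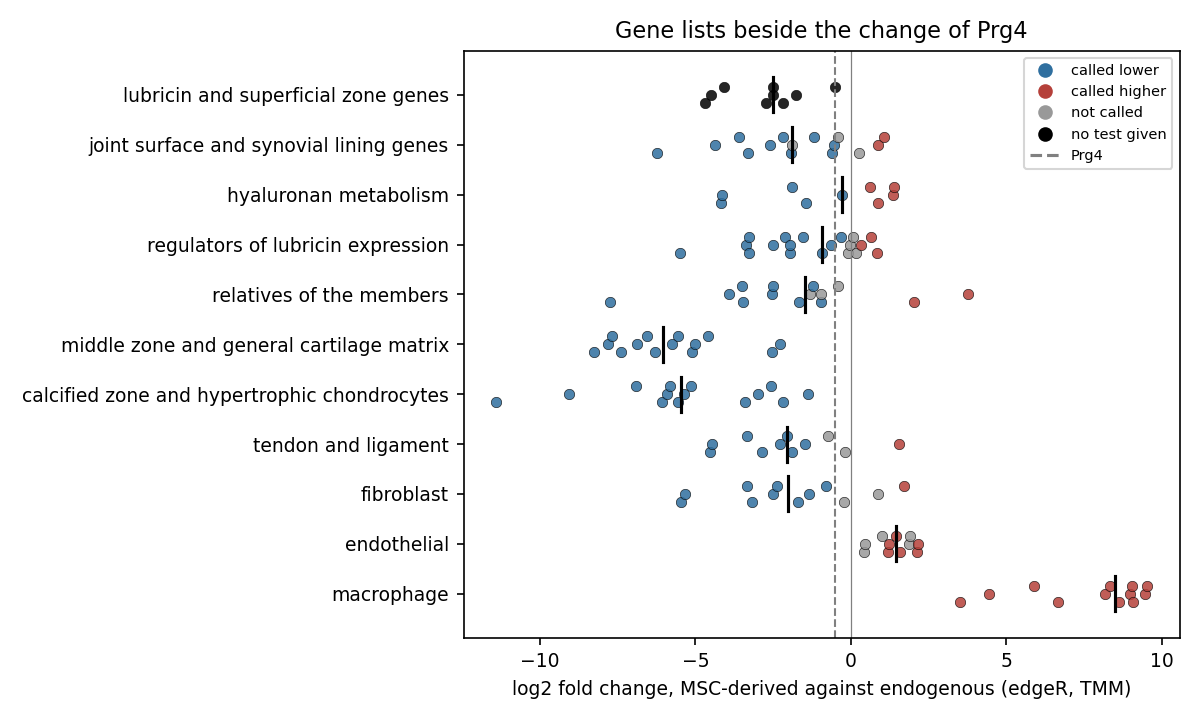
Log2 fold change of each gene tested (MSC-derived against endogenous, CPM scale) by list, with the list's median as a bar and Prg4 at -0.51 as a dashed line. The vertical offset of points has no meaning. The cartilage lists lie furthest left, with medians of -6.03 and -5.46, and the macrophage list lies to the right of Prg4 with a median of 8.49.

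Prg4 is also made outside cartilage, and markers of those sources were measured. Some macrophages of body cavities express it. All 12 general macrophage markers were called higher, at a median of 8.49 on the log2 scale, and C1qa, a complement gene of tissue macrophages, was at 2814 to 2914 TPM in MSC-derived cells against 2.42 to 8.75. Of 8 markers of peritoneal macrophages, 4 were called higher, 1 lower and 3 neither, with summed levels of 781 to 805 TPM against 14.9 to 18.2. Most of that sum was Cd5l, which other tissue macrophages also express, at 713 to 734 TPM. The defining factor gene of peritoneal macrophages, Gata6, was near 0, at 0.13 to 0.24 TPM in MSC-derived cells against 1.54 to 4.09, and was called lower. Megakaryocytes are another known source of Prg4. Of 8 of their markers tested, 1 was called higher, 2 lower and 5 neither, with sums of 173 to 182 TPM against 38.0 to 63.0, of which Pf4, a platelet chemokine gene, gave 161 to 169 in MSC-derived cells. The defining marker Itga2b did not pass the test (-0.35, SE 0.23). Without endogenous replicate 1, 5 megakaryocyte markers were called lower. Liver also makes Prg4, and hepatocyte markers summed to 0.970 to 1.71 TPM in MSC-derived cells and 331 to 402 TPM in endogenous cells, with 2 of 3 tested called lower. Serpina1a alone gave 325 to 389 TPM of the endogenous sum, and Alb, the defining albumin gene, was near 0 in both groups at 0.18 to 0.37 and 0.19 to 0.58 TPM. The part of these cell types in the level of Prg4 was not tested.

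Genes of tendon and fibroblasts were set beside Thbs4, Tnxb, Abi3bp and Cilp, which those tissues express as well. Of 11 tendon and ligament genes tested, 8 were called lower, 1 higher and 2 neither, with a median log2 fold change of -2.07. The tendon marker Tnmd did not pass the test (-0.21), the small proteoglycan gene Fmod fell by 4.54, and the fibril-associated collagen gene Col14a1 rose by 1.53. Of 12 fibroblast genes tested, 9 were called lower, 1 higher and 2 neither, with a median of -2.03. Col1a1, the type I collagen gene, which bone also expresses, fell by 5.48, from 18040 to 23514 TPM to 331 to 339 TPM. Pi16, a marker of a fibroblast progenitor state in fat and other tissues, rose by 1.69. The medians of the tendon and fibroblast lists were near that of the 9 genes. Of 9 genes of fat stroma and adipocytes tested, the tissue the injected cells came from, 4 were called higher, 2 lower and 3 neither, with a median of 0.83, and 5 were called lower without endogenous replicate 1. The list did not move as one. Adipoq, the adiponectin gene that defines adipocytes, fell by 7.43 on the log2 scale (SE 0.26), from 255 to 278 TPM to 0.58 to 1.49 TPM, while the adipogenic factor gene Pparg rose by 4.05 (SE 0.12) and the fatty acid carrier gene Fabp4 rose by 3.15 (SE 0.13), and macrophages, whose markers moved with them, express both. All 9 neutrophil and all 8 erythroid markers were called higher. The part of any of these cell types in the values of the 9 genes was not tested.

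Across the whole table, the genes whose pattern over the 6 libraries was most like that of Prg4 belonged to none of the lists used here. The lists hold only a small part of the genes compared, so nothing is read from that absence. Likeness was the distance between log2 CPM centred on each gene's mean, over the 5343 genes tested whose mean log2 CPM reached 5, so a smaller value means a closer pattern. The 10 closest, at distances of 0.06 to 0.11, included Anapc5, Lmo4, Taf13, Stx6, Mia3 and Tor1aip2. Anapc5, a subunit of the anaphase-promoting complex, was at a mean of 82.0 TPM in MSC-derived and 164 TPM in endogenous cells. None of the other 8 genes was among them. Their larger fold changes, given above, fixed this beforehand because the distance follows the fold change, so nothing is read from it. Without endogenous replicate 1, 2 of the 10 closest by pattern (Anapc5 and Tor1aip2) stayed in the list. Of 136 genes with an endogenous mean of at least 1000 TPM, 65 had a lower share of their endogenous TPM in MSC-derived cells than Prg4 and 70 a higher one, and 41 were under 10%. The median share of these abundant genes was 54.9%, beside 50.2% for Prg4 and 4.31% for Cilp. These genes were picked by a high level in endogenous cells alone, which pulls their shares down. Nothing is therefore read from the place of Prg4 among them.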

How the data were processed

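Tomato+ cells of 6 libraries (3 MSC-derived, 3 endogenous) were sequenced in bulk. The study's methods describe read filtering, alignment to the genome and a gene set, and estimation with RSEM, and the labels name RSEM 1.2.12, Bowtie2 2.2.5 and the build mm9. The authors deposited expected counts per gene, not normalized, FPKM (per length and library) and TPM (FPKM rescaled to the same sum in each library). A further deposited signal per gene, scaled per library, was used only as a check of the counts. The 24 columns of single samples were matched by name, and 8 columns of group averages were not used.

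Expected counts were rounded, which changed 20.6% of values, and the test was the quasi-likelihood F test of edgeR 4.0.16 under R 4.3.3 (filterByExpr, TMM scaling, group as the only term), with Benjamini-Hochberg adjustment over 14289 genes at 0.05. The script was tested on simulated data. SE is the log2 fold change divided by the square root of F. Alternatives were DESeq2 1.42.0, other scalings and filters, limma 3.58.1 on FPKM and TPM, a replicate block and leaving out each library. Genes were named by rule: all 9 genes, and from each list those with the largest changes, the smallest, and defining markers. Clic5, Htra4, Pdpn and others near Prg4, and Gas1, which was not near it, were named after their values were seen. The 9 genes and all lists were chosen with earlier results of these data known. Sequences came from a RefSeq table of GRCm38.p6. Its build differs from that of the files, which give no coordinates. Figures were drawn with matplotlib 3.10.9. Some genes that the rule names are not reported here.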

Additional observations from a re-analysis of the deposited data

How the results depend on the processing

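The log2 fold changes of the 9 genes stayed below 0 in each of 17 alternatives, a direction that the choice of the genes fixed, so nothing is read from it. The log2 fold change of Prg4 was -0.60 with upper quartile scaling, -0.42 on log2(FPKM + 1), -0.42 on log2(FPKM + 0.1) and -0.98 on log2(TPM + 1), and ran from -0.59 to -0.49 with each library left out in turn. The replicate numbers did not pair the libraries (correlations of same-numbered deviations of 0.01, 0.00 and 0.02), and a replicate block gave 4103 genes higher and 3920 lower, with 1 megakaryocyte marker lower. At an adjusted p of 0.001, 2134 genes were higher and 2380 lower, 1 joint surface gene, 2 hyaluronan genes, 1 relative and 1 endothelial marker were higher, and 1 fat, 0 peritoneal macrophage, 1 megakaryocyte and 1 hepatocyte marker were lower. On log2(TPM + 1), 0 joint surface genes, 1 regulator, 1 relative and 3 endothelial markers were higher, and the sign turned for Tspan15 (-0.093), Tgfbr1 (-0.11) and Creb1 (-0.22). On log2(FPKM + 1), 1 relative and 2 fibroblast genes were higher, and on log2(FPKM + 0.1), 2 fibroblast genes were. Smad2 was -0.41 and called lower on log2(TPM + 1), turned to 0.076 and 0.090 on these FPKM scales, and ran from -0.16 to 0.052 with each library left out, at 0.01 without endogenous replicate 2 and 0.01 without endogenous replicate 3. A minimum CPM left 1 megakaryocyte marker lower. With each library left out in turn, 2 to 5 regulators, 1 to 2 relatives and 4 to 10 endothelial markers were higher, and 2 to 5 fat and 1 to 5 megakaryocyte markers were lower. The highest of these counts came without endogenous replicate 1, and that of the relatives also without endogenous replicate 3. A group left with 2 libraries shared the spread estimated over both groups. The cause of these shifts was not tested.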
